A study of Rattus norvegicus with 21 samples.

Results

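Markers of preneoplastic liver foci were followed as a panel of 7 genes: Gstp1, Ggt1, Gpx2, Akr7a3, Aldh3a1, Gpc3 and Afp, in 21 rat livers. A probe set belonged to the panel when its gene symbol in the array annotation was exactly 1 of these names. That gave 8 probe sets for 7 genes, of 14217 genes with a named probe set on the array. Gpc3 had 2 probe sets and each of the other 6 genes had 1.

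The livers came from male rats of 2 dosing experiments, with 3 animals in each of 7 groups and 1 array per animal. In the first, Sprague-Dawley rats received piperonyl butoxide (PBO, a synergist added to insecticides) by mouth for 7 days at 500, 1000 or 1500 mg/kg, and their controls (0 mg/kg) received methyl cellulose in the same way. In the second, Fischer344 rats ate dammar resin (DAM, a plant resin) for 28 days at 2% or 5% of the diet, which the labels equate with 800 and 2000 mg/kg, and their controls ate the basal diet. Strain, route, length of dosing and tissue storage (RNAlater after PBO, freezing after DAM) all changed with the compound, so their parts in a difference between the experiments cannot be told apart. No histology, age or genetic modification is given in the labels, and whole-liver RNA was measured, not dissected foci.

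Foci are clones of altered hepatocytes that appear before tumours in rats given liver carcinogens, and pathologists find them by proteins that normal adult hepatocytes hold at low levels. The enzyme markers belong to the defence against electrophiles and oxidants: Gstp1 is the placental glutathione S-transferase, Ggt1 the gamma-glutamyl transferase that breaks down extracellular glutathione, Gpx2 a glutathione peroxidase best known from gut epithelium, Akr7a3 an aflatoxin aldehyde reductase and Aldh3a1 an aldehyde dehydrogenase that tumour cells switch on. Afp (alpha-fetoprotein) and Gpc3 (the surface proteoglycan glypican 3) are instead genes of the fetal liver that are silenced after birth and return in some liver tumours. Several of the enzyme genes are also ordinary targets of the nuclear receptors and of NRF2, the transcription factor of the antioxidant response.

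All arrays carried the same scale, with a trimmed mean signal of 500.2 to 500.3, and the median signal was 94.3 to 114.1 in the PBO experiment and 76.0 to 86.2 in the DAM experiment. The 8 hepatocyte markers all had a probe set, and their summed signal was 244770 to 352500 in the PBO experiment and 203680 to 268690 in the DAM experiment. One array stood apart: PBO 1500 mg/kg replicate 3 deviated from its group mean by a root mean square of 0.495 on the log2 scale, against 0.276 to 0.368 for the other PBO arrays and 0.207 to 0.227 for the DAM arrays. With 3 arrays a group, precision is limited throughout. Values are signals as deposited, and changes are differences of log2(signal + 16) with the standard error (SE) of a limma fit, a scale that understates the change of dim probe sets. A change was called when its adjusted p, over all 18625 probe sets tested, was below 0.05.

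Stretches before a transcript start are shown for 3 of the members whose windows held a searched motif. No motif of the receptors CAR and PXR, whose target genes are described further on, was searched. The sequences are those of RefSeq on the rat build GRCr8, 5' to 3' on the strand of the gene, and capitals mark a motif. For Gpx2 the window is the 250 bases before the gene start, chr6:101230034-101230283 on the minus strand, and the capitals are the reverse complement of the antioxidant response element core (ARE, letters TGACNNNGC), which lies 13 to 5 bases before the start.
Gpx2: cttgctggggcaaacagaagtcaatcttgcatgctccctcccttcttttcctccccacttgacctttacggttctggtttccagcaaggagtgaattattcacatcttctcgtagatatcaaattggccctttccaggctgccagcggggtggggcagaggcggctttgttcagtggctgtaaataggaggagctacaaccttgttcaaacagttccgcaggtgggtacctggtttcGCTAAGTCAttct
For Akr7a3 the window is chr5:156876471-156876720 on the plus strand, and the capitals are the xenobiotic response element core (XRE, letters GCGTG), 57 to 53 bases before the start.
Akr7a3: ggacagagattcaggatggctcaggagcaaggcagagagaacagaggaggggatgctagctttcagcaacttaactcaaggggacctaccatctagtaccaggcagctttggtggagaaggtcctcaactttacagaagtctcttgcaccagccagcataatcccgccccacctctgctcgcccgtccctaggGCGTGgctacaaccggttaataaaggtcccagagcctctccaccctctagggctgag
For Gstp1 the window in the table lies inside the annotated gene, before an internal transcript start and not before the gene start. A stretch of 30 bases of it is shown, chr1:210769747-210769776 on the minus strand, and the capitals are an ARE core 61 to 53 bases before that internal start that overlaps an AP-1 site (letters TGACTCA).
Gstp1: tccactgtgtTGACTCAGCatccggggcgg
A window was given for 6 of the 7 genes, Aldh3a1 being without one, and motifs were searched on both strands over 250 bases. The window of Gstp1 also held 1 XRE core, that of Gpc3 held 3, and that of Afp held none of the motifs. The window of Ggt1 held none either, but it too lies inside the annotated gene (chr20:13095105-13095354), so the bases before the Ggt1 gene start were not searched. Of 33469 rat promoter windows of the same length, 10.08% held an ARE core, 4.05% an AP-1 site and 25.89% an XRE core, so a match is a description of letters and not of a bound site.

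Ggt1, Gpx2 and Akr7a3 rose under both compounds, Afp fell at the higher dose of DAM, and Gstp1, Gpc3 and Aldh3a1 had no call at any dose against its control. Aldh3a1 was below the filter on low signal in both experiments and Gpc3 in the DAM experiment, so 6 of the 7 members were tested for PBO and 5 for DAM. At 500 mg/kg of PBO 2 members rose, where 0.349% of all probe sets rose. At 1000 mg/kg 3 rose, against 1.88% of all probe sets, and at 1500 mg/kg 3 rose, against 8.08%. In the DAM experiment 3 rose at 800 mg/kg, against 2.16% of all probe sets. At 2000 mg/kg of DAM 3 rose and 1 fell, against 6.22% of all probe sets that rose and 6.11% that fell. With the PBO dose taken as a number, 3 members had a called rising slope, against 7.92% of all probe sets. They were Ggt1, Gpx2 and Akr7a3. The dosed groups of Akr7a3 overlapped, so its slope does not show a rise from dose to dose. Whole-liver RNA cannot tell a change in the number of cells of a type from a change of RNA per cell.

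Separation of single animals was wider than the calls, over all probe sets as well as for the members. All 3 dosed animals lay above all 3 controls for 4 of the members tested at 500 mg/kg of PBO (8.57% of all probe sets), for 3 at 1000 mg/kg (12%) and for 4 at 1500 mg/kg (14.4%). Gpc3 was among the 4 at 500 mg/kg and Gstp1 among the 4 at 1500 mg/kg, neither of them called. In the DAM experiment all dosed animals lay above the controls for 3 members at 800 mg/kg (9.95%) and for 3 at 2000 mg/kg (14.2%). Afp was the 1 member whose dosed animals all lay below the controls, at 1000 mg/kg (15.5% of all probe sets) and 1500 mg/kg (19%) of PBO and at 800 mg/kg (10.9%) and 2000 mg/kg (16.6%) of DAM.

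**Figure D1:**
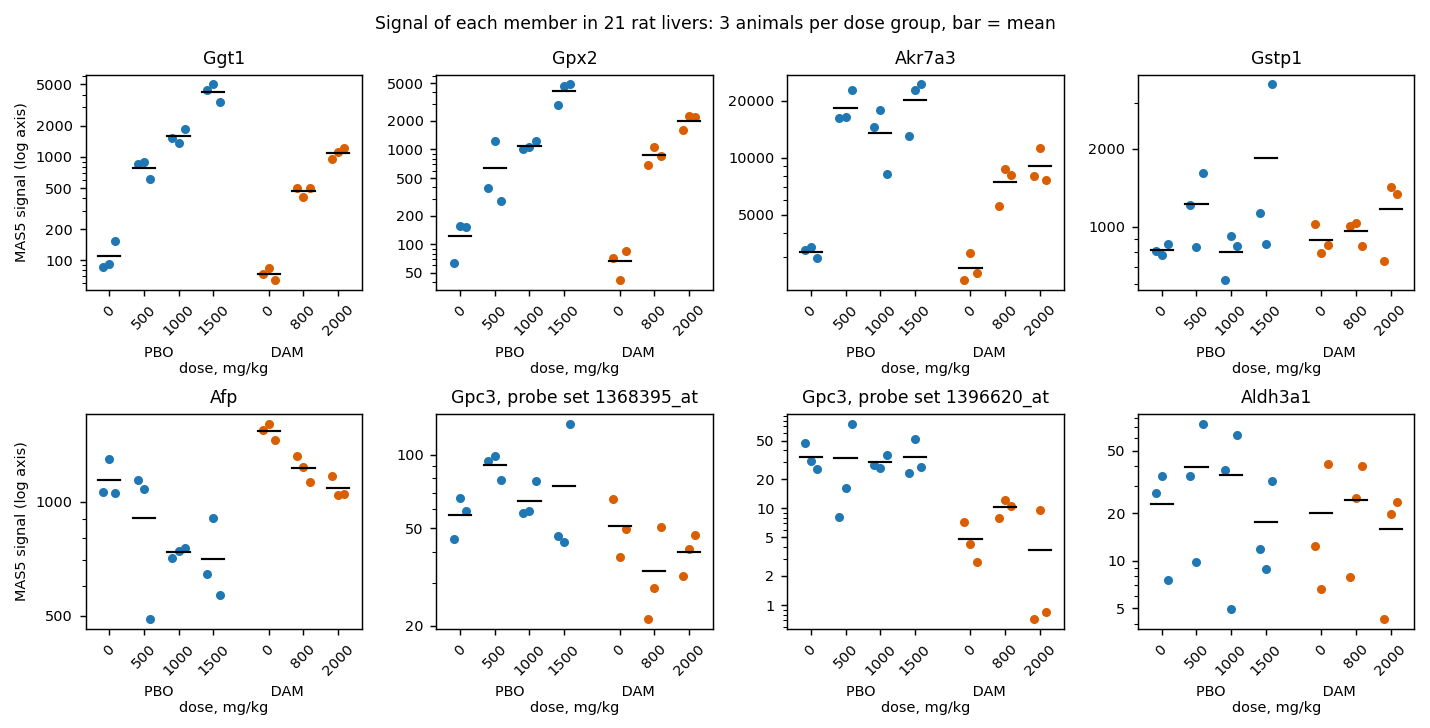
Signal of each member probe set (log axis) in each of 21 livers by dose, PBO in blue and DAM in orange, with the group mean as a bar. Ggt1 climbs at every dose step, from 86.1 to 153.6 in PBO controls to 3367 to 5018 at 1500 mg/kg, while Gstp1 overlaps between neighbouring groups and 1 animal at 1500 mg/kg stands at 3554.

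Ggt1 (gene at chr20:13074141-13103551) encodes the cell surface enzyme whose histochemical stain was the classical sign of foci. Its signal was 86.1, 92.8 and 153.6 in PBO controls, 847.1, 899.99 and 613.0 at 500 mg/kg, 1508, 1358 and 1873 at 1000 mg/kg, and 4399, 5018 and 3367 at 1500 mg/kg. The 4 groups did not overlap, and every animal at a dose lay above every animal at the dose below it. Relative to the control, Ggt1 rose by 2.68 ± 0.22 (SE, n = 3 per group, adjusted p = 5.46e-05) at 500 mg/kg, by 3.68 ± 0.22 (1.36e-06) at 1000 mg/kg and by 5.09 ± 0.22 (3.85e-08) at 1500 mg/kg. The last is a fold of 34.2 on the fitted scale, and it was the eighth largest rise among the probe sets tested.

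In the DAM experiment the Ggt1 signal was 73.1, 83.8 and 64.7 in controls, 495.5, 408.0 and 498.4 at 800 mg/kg, and 961.9, 1119 and 1218 at 2000 mg/kg. These 3 groups were also apart from each other. Ggt1 rose by 2.43 ± 0.14 (adjusted p = 1.70e-06) at 800 mg/kg and by 3.63 ± 0.14 (2.25e-08) at 2000 mg/kg. Over all 7 groups the order of mean Ggt1 signals ran from PBO 1500, PBO 1000, DAM 2000, PBO 500 and DAM 800 mg/kg down to PBO controls and DAM controls, and no neighbours in that order shared a value.

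The step from 1000 to 1500 mg/kg of PBO raised Ggt1 by 1.42 ± 0.22 (adjusted p = 0.0132), the only member called there (0.612% of all probe sets rose). The Ggt1 call was lost with 1000 mg/kg replicate 1 left out (adjusted p = 0.0578) and with 1000 mg/kg replicate 2 left out (0.0816). It was also lost in a fit of these 6 arrays alone (0.0894). Gpx2 had a larger change on this step, 1.88 ± 0.44, just short of the threshold (adjusted p = 0.0559). Gpx2 passed there with a pseudocount of 64 (0.0385), the 60th percentile filter (0.0480) and a replicate block (0.0453). With arrays left out its adjusted p was as high as 0.175. From 800 to 2000 mg/kg of DAM Ggt1 rose by 1.21 ± 0.14 (adjusted p = 7.69e-04). Between 500 and 1000 mg/kg of PBO limma called 0 members (0.0107% of all probe sets). There 2 had an unadjusted p below 0.05: Ggt1 with a change of 1.00 ± 0.22 (adjusted p = 0.572) and Gpx2 with 1.06 ± 0.44 (adjusted p = 0.912). The share of all probe sets at an unadjusted p below 0.05 was not counted, here or for the lists below. With dose as a number, Ggt1 rose by 1.63 ± 0.11 per 500 mg/kg (adjusted p = 8.98e-07).

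Gpx2 (gene at chr6:101226745-101230033) encodes the peroxidase that reduces hydroperoxides with glutathione. Its signal was 64.3, 154.8 and 152.5 in PBO controls, 389.0, 1228 and 284.4 at 500 mg/kg, 1006, 1064 and 1214 at 1000 mg/kg, and 2938, 4679 and 4861 at 1500 mg/kg. All dosed animals lay above all controls, but the 500 mg/kg group was uneven, with 1 animal at the level of the 1000 mg/kg group. At 500 mg/kg the change was 2.01 ± 0.44 and missed the threshold (adjusted p = 0.0767). Gpx2 passed it there without 500 mg/kg replicate 3 (change 2.42, adjusted p = 0.0432) and without 1500 mg/kg replicate 3 (adjusted p = 0.0308), and also with array weights (0.0153). Over all arrays left out in turn, Gpx2 changed by 1.40 to 2.42 at 500 mg/kg, with an adjusted p of up to 0.268. It rose by 3.07 ± 0.44 (adjusted p = 0.00218) at 1000 mg/kg and by 4.95 ± 0.44 (1.61e-05) at 1500 mg/kg, and by 1.59 ± 0.14 per 500 mg/kg over the doses (5.76e-06).

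Under DAM the Gpx2 signal was 71.2, 42.1 and 85.4 in controls, 684.6, 1069 and 847.2 at 800 mg/kg, and 1594, 2254 and 2183 at 2000 mg/kg. The 3 groups did not overlap. Gpx2 rose by 3.44 ± 0.21 (adjusted p = 2.82e-06) and by 4.64 ± 0.21 (7.29e-08), the seventh and the fourth largest rise among the probe sets tested in these comparisons. Between the DAM doses 2 members rose (0.392% of all probe sets rose), Ggt1 and Gpx2, the latter by 1.21 ± 0.21 (adjusted p = 0.0154). The Gpx2 call between the doses was lost without 800 mg/kg replicate 1 (adjusted p = 0.0761) or 3 (0.0566) and without 2000 mg/kg replicate 2 (0.0900) or 3 (0.0603). In the order of mean signals, PBO 1500, DAM 2000 and PBO 1000 mg/kg were apart from each other, PBO 1000, DAM 800 and PBO 500 mg/kg overlapped with their neighbours, and the controls of both experiments overlapped below them.

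Akr7a3 (gene at chr5:156876721-156884599) encodes the reductase that clears the dialdehyde of aflatoxin and related carbonyls. Its signal was 3247, 3359 and 2938 in PBO controls, 16172, 16375 and 22691 at 500 mg/kg, 14495, 17780 and 8238 at 1000 mg/kg, and 13095, 22744 and 24421 at 1500 mg/kg. Every dosed animal lay above the controls, and the 3 dosed groups overlapped. Akr7a3 rose by 2.51 ± 0.27 (adjusted p = 5.29e-04) at 500 mg/kg, by 2.01 ± 0.27 (0.00144) at 1000 mg/kg and by 2.60 ± 0.27 (5.40e-05) at 1500 mg/kg. The difference between 1000 and 500 mg/kg was -0.50 ± 0.27 (adjusted p = 0.973) and that between 1500 and 1000 mg/kg 0.59 ± 0.27 (0.274), so no step above the lowest dose passed the test. The fit with dose as a number gave 0.73 ± 0.17 per 500 mg/kg (adjusted p = 0.0107).

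In the DAM experiment the Akr7a3 signal was 2257, 3151 and 2469 in controls, 5558, 8671 and 8103 at 800 mg/kg, and 8028, 11268 and 7660 at 2000 mg/kg. Both dosed groups were above the controls and overlapped with each other. The rises were 1.49 ± 0.18 (adjusted p = 6.66e-04) and 1.76 ± 0.18 (4.65e-05), with 0.28 ± 0.18 (0.590) between the doses. Across all groups, neighbours in the order of mean Akr7a3 signals overlapped, except that the 5 dosed groups lay above both controls.

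Gstp1 (gene at chr1:210767237-210770242), the most used immunohistochemical marker of rat foci, had no call. Its signal was 804.0, 779.6 and 858.2 in PBO controls, 1214, 835.3 and 1616 at 500 mg/kg, 624.0, 923.7 and 846.4 at 1000 mg/kg, and 1130, 859.6 and 3554 at 1500 mg/kg. The 3 animals at 1500 mg/kg lay above the controls, but replicate 2 did so by a signal of 859.6 against 858.2. The change was 0.53 ± 0.40 (adjusted p = 0.743) at 500 mg/kg, -0.05 ± 0.40 (0.973) at 1000 mg/kg and 0.88 ± 0.40 (0.154) at 1500 mg/kg. The last value rested on single animals: it was 0.27 (adjusted p = 0.492) without replicate 3, the array that stands apart, and 1.29 (0.0385) without replicate 2. The change at 1000 mg/kg turned to 0.07 with median scaling and to 0.12 without its replicate 1.

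Under DAM the Gstp1 signal was 1025, 794.9 and 848.6 in controls, 1006, 1040 and 842.8 at 800 mg/kg, and 741.3, 1426 and 1339 at 2000 mg/kg. These groups overlapped, with 1 animal at 2000 mg/kg below every control. Changes were 0.11 ± 0.20 (adjusted p = 0.847) and 0.34 ± 0.20 (0.311), and the latter became 0.63 (0.0104) without 2000 mg/kg replicate 1. In the order of mean signals over the 7 groups, every pair of neighbours overlapped for Gstp1.

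Aldh3a1 (gene at chr10:46392464-46402151) stayed dim in all livers. Its signal lay between 4.26 and 74.1 over the 21 arrays, with group means from 15.9 at 2000 mg/kg of DAM to 39.4 at 500 mg/kg of PBO. Within each of the 7 groups the values spread widely, with a coefficient of variation of 60.2% to 92.1%, and every dosed group overlapped with its control. The probe set was below the filter in both experiments, so no test was made and no direction is given.

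**Figure D2:**
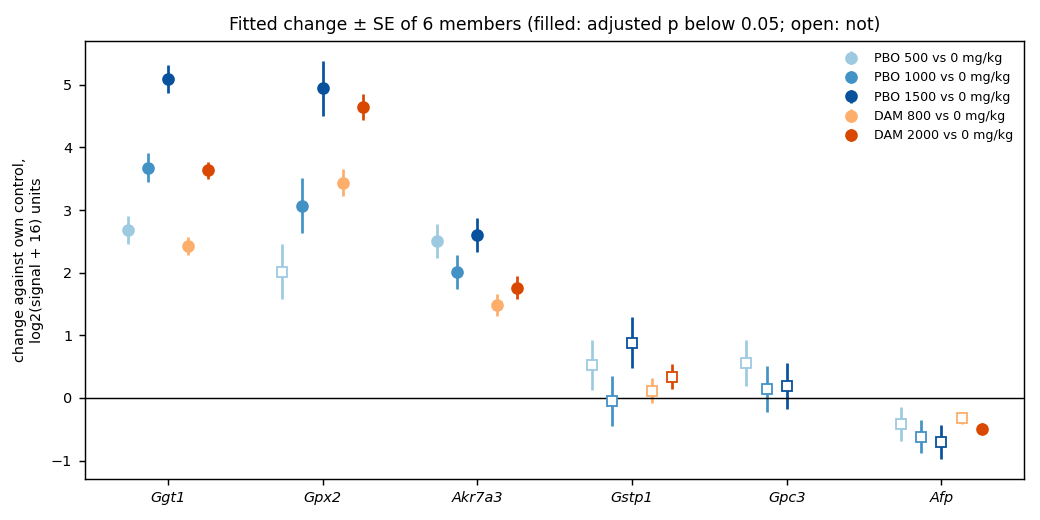
Change against the own control in log2(signal + 16) units (points, bars = SE) for the 6 members tested, by dose, with filled circles for an adjusted p below 0.05 and open squares otherwise. Ggt1, Gpx2 and Akr7a3 lie between 1.49 and 5.09 at every dose, all called except Gpx2 at 500 mg/kg of PBO, while Gstp1 and Gpc3 have open squares only, and Afp lies below 0 with 1 filled circle, at 2000 mg/kg of DAM.

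Afp (gene at chr14:17857584-17875645) encodes the fetal counterpart of albumin. Its signal was 1549, 1609 and 1457 in DAM controls, 1323, 1235 and 1128 at 800 mg/kg, and 1173, 1041 and 1051 at 2000 mg/kg. Each dosed animal lay below all controls, and the dosed groups overlapped. Afp fell by 0.49 ± 0.09 on the log2 scale at 2000 mg/kg (adjusted p = 0.00315), with a change of -0.32 ± 0.09 at 800 mg/kg (0.0705), which passed with the filter at the 60th percentile (0.0496). The group mean at 2000 mg/kg was 0.708 times that of the controls.

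In the PBO experiment the Afp signal was 1063, 1296 and 1057 in controls, 1141, 1081 and 488.8 at 500 mg/kg, 709.3, 741.3 and 753.3 at 1000 mg/kg, and 642.7, 905.6 and 565.5 at 1500 mg/kg. The animals at 1000 and at 1500 mg/kg lay below all controls. The changes were -0.42 ± 0.27 (adjusted p = 0.674), -0.62 ± 0.27 (0.288) and -0.70 ± 0.27 (0.0933), and -0.23 ± 0.08 per 500 mg/kg (0.0691), all short of the threshold. At 1500 mg/kg Afp was at -0.89 (adjusted p = 0.0495) without replicate 2. At 1000 mg/kg the adjusted p in a fit of those 6 arrays alone was 0.0139, and the fit over the doses gave 0.00714 without 500 mg/kg replicate 3 and 0.0352 without 1500 mg/kg replicate 2. Other arrays left out raised the adjusted p to as much as 0.536 at 1000 mg/kg, 0.233 at 1500 mg/kg and 0.176 over the doses. The change at 500 mg/kg then ran from -0.63 to -0.03. Controls of the DAM experiment stood apart from every other group in mean Afp signal, and all other neighbours in the order overlapped.

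Gpc3 (gene at chrX:136789770-137157598), a cell surface binder of growth factors, was dim on both of its probe sets. On the brighter one the signal was 45.4, 66.8 and 58.7 in PBO controls, 94.1, 98.6 and 78.6 at 500 mg/kg, 57.6, 59.0 and 77.9 at 1000 mg/kg, and 46.5, 44.1 and 134.0 at 1500 mg/kg. The 500 mg/kg animals were above the controls, and the higher doses overlapped with them. Changes were 0.55 ± 0.37 (adjusted p = 0.685), 0.15 ± 0.37 (0.888) and 0.19 ± 0.37 (0.771), the last turning to -0.24 without 1500 mg/kg replicate 3 and to -0.12 with array weights. Under DAM the signals of the 3 groups overlapped, between 21.3 and 66.0, and the probe set was below the filter. The dimmer probe set lay between 0.714 and 74.9 over all arrays and was below the filter in both experiments. The probe sets disagreed at 800 mg/kg of DAM, at -0.47 on the brighter and 0.34 on the dimmer, with no test of either. They also differed in sign at 500 mg/kg of PBO, at 0.55 on the brighter and -0.26 on the dimmer, which was not tested. Neither probe set showed a call.

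The effects of the highest doses, each against its own control, were compared in 1 fit over all 21 arrays. Ggt1 alone differed: the effect of 2000 mg/kg of DAM minus that of 1500 mg/kg of PBO was -1.46 ± 0.28 (adjusted p = 0.00501), a smaller rise under DAM, where 2.14% of all probe sets had a lower effect under DAM. The same difference was -0.30 ± 0.55 (adjusted p = 0.825) for Gpx2, -0.84 ± 0.37 (0.211) for Akr7a3, -0.54 ± 0.51 (0.614) for Gstp1, 0.21 ± 0.31 (0.778) for Afp and -0.44 ± 0.47 (0.666) for Gpc3. Those SEs leave room for differences of a log2 unit in most members, so no likeness follows from the missing calls. Doses, strain, route and time differed between the experiments.

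**Figure D3:**
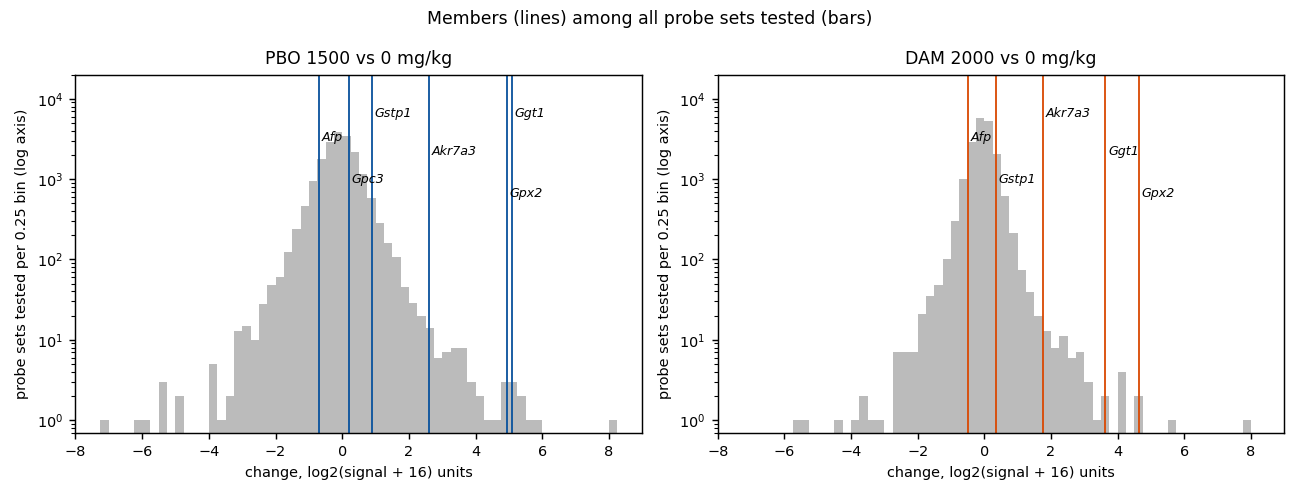
Number of probe sets (log axis) by change in log2(signal + 16) units at the highest dose of each compound, with a line at the change of each member tested. The lines of Ggt1 (5.09 and 3.63) and Gpx2 (4.95 and 4.64) stand in the thin right tail, and those of Gstp1 (0.88 and 0.34), Gpc3 (0.19, PBO only) and Afp (-0.70 and -0.49) lie nearer to 0.

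The genes whose 5 changes against control were closest to those of a called member were found by the root mean square difference among 10180 candidate genes, as a description. For Ggt1 these were the retinal dehydrogenase Aldh1a1 (0.72), the sulfotransferase Sult2a6 (0.75) and the acyl-CoA synthetase Acsm2 (0.77), with Gpx2 itself at 0.76. For Gpx2 they were Sult2a6 (0.66), Aldh1a1 (1.08) and the receptor Adgrg2 (1.15). Akr7a3 was nearest to Pir (0.28), Ugt2b1 (0.60) and Zdhhc2 (0.64). For Pir the changes at 500, 1000 and 1500 mg/kg of PBO were 2.00, 2.32 and 2.60, and at 800 and 2000 mg/kg of DAM 1.28 and 1.76, against 2.51, 2.01, 2.60, 1.49 and 1.76 for Akr7a3. Afp had many near neighbours because its changes were small, and Lrp2 (0.05), Irf1 (0.05) and Sema4b (0.07) came first. The changes at different doses of 1 compound share their controls, so likeness over these 5 values counts the same control animals repeatedly.

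Beside this list and those below stand the shares over all 18625 probe sets tested. At 1500 mg/kg of PBO 8.08% rose, and 46.6% of the 3228 called in either direction were rises. At 2000 mg/kg of DAM 6.22% rose and 6.11% fell. Of 10 other genes used as foci or tumour markers, 9 had a probe set and 8 were tested. At 1500 mg/kg of PBO 3 rose and 1 fell, with a median change of 0.94 against -0.08 over all probe sets, and at 2000 mg/kg of DAM 3 rose and none fell, with a median of 0.23 against -0.04. Abcc3, the basolateral exporter of conjugates, rose by 5.65 ± 0.29 (adjusted p = 1.33e-07) under PBO and by 4.03 ± 0.21 (2.59e-07) under DAM. Nqo1, a quinone reductase, rose by 1.62 ± 0.24 and 1.26 ± 0.11, and the epoxide hydrolase Ephx1 by 1.29 ± 0.12 and 0.97 ± 0.09. The gap junction gene Gjb1, which foci are known to lose, fell by 0.67 ± 0.11 on the log2 scale at 1500 mg/kg of PBO (adjusted p = 0.00169) and stood at -0.22 ± 0.07 at 2000 mg/kg of DAM (0.0578). Cd44, Cd36, Prom1 and Akr1b8 had no call at these doses.

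Oncofetal and progenitor genes gave a mixed picture beside Afp and Gpc3. Of 16, 11 had a probe set and 8 were tested: 2 rose and 1 fell at 1500 mg/kg of PBO (median -0.27), and 3 rose and 1 fell at 2000 mg/kg of DAM (median 0.16). The adhesion molecule Epcam rose by 2.06 ± 0.13 (adjusted p = 7.79e-07) and 1.37 ± 0.14 (3.76e-05), and the surface protein Cd24 by 1.45 ± 0.26 and 1.60 ± 0.25. Igf2bp3, an oncofetal binder of messenger RNA, fell by 1.44 ± 0.31 and by 0.62 ± 0.11 on the log2 scale. The transcription factor Sox4 rose by 1.03 ± 0.21 under DAM and stood at -0.77 ± 0.31 (adjusted p = 0.106) under PBO. H19, Mdk, Krt19 and Prom1 had no call.

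Epcam also belongs to the cholangiocyte markers, of which 6 of 8 had a probe set. Their summed signal was 1196 to 1512 in PBO controls, 1769 to 1934 at 500 mg/kg, 1636 to 2138 at 1000 mg/kg and 3587 to 4375 at 1500 mg/kg, and in the DAM experiment 751.1 to 989.0 in controls, 1223 to 1454 at 800 mg/kg and 1654 to 1841 at 2000 mg/kg. All dosed groups were above their controls, and the sums at 500 and 1000 mg/kg of PBO overlapped. Epcam made up most of each sum, with a signal of 786.1 to 846.4 in PBO controls and 3038 to 3803 at 1500 mg/kg. The defining keratin Krt19 was at 153.1 to 250.3 in PBO controls and 102.0 to 229.6 at 1500 mg/kg, and at 133.1 to 286.1 and 124.0 to 183.1 in DAM controls and at 2000 mg/kg, so its groups overlapped. Epcam was the only cholangiocyte marker called at these doses, of 4 tested under PBO and 2 under DAM. The part of bile duct cells in the rises of Ggt1 and Gpx2 was not tested.

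Genes that make, recycle and break down glutathione moved in both directions. Of 13 tested genes of glutathione handling, 4 rose and 2 fell at 1500 mg/kg of PBO (median 0.00), and 3 rose and 2 fell at 2000 mg/kg of DAM (median -0.07). The glutathione reductase Gsr rose by 2.42 ± 0.17 (adjusted p = 2.75e-06) and 0.85 ± 0.11 (3.51e-04), while Chac2, which degrades glutathione inside cells, fell by 1.19 ± 0.17 and by 0.54 ± 0.14 on the log2 scale. Relatives of Ggt1 had no call: Ggt5 stood at 0.00 ± 0.40 and -0.25 ± 0.18, and Ggt7 at -0.69 ± 0.41 and -0.38 ± 0.25. Among the other glutathione peroxidases limma called 0 of 5 at either dose, with 2 and 0 at an unadjusted p below 0.05. The abundant liver form Gpx1 was at -0.13 ± 0.15 and 0.11 ± 0.09, and Gpx4, which protects membrane lipids, at 0.21 ± 0.09 and 0.13 ± 0.06.

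Other glutathione S-transferases did respond while Gstp1 had no call. Of 18 tested, 11 rose and 3 fell at 1500 mg/kg of PBO (median 0.75), and 9 rose and 1 fell at 2000 mg/kg of DAM (median 0.41). Gsta3 rose by 5.34 ± 0.17 (adjusted p = 1.63e-09) and 5.71 ± 0.22 (2.25e-08), and Gstm3 by 5.84 ± 0.43 and 2.80 ± 0.22. The microsomal transferase Mgst2 rose by 1.26 ± 0.10 and 0.70 ± 0.07. The difference between Gstp1 and any of these genes was not tested.

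Among relatives of the dim Aldh3a1, 16 aldehyde dehydrogenases were tested. At 1500 mg/kg of PBO 2 rose and 4 fell (median -0.17), and at 2000 mg/kg of DAM 4 rose and 1 fell (median -0.02). Aldh1a1 rose by 3.76 ± 0.16 and 3.44 ± 0.20, whereas Aldh3a2, the fatty aldehyde dehydrogenase of the same subfamily, rose by 0.37 ± 0.09 under PBO (adjusted p = 0.0156) and stood at -0.02 ± 0.08 under DAM. Of the aldo-keto reductases, 5 of 13 rose and 1 fell under PBO (median 0.45), and 5 of 12 rose and 1 fell under DAM (median 0.26). Akr7a2, the closest relative of Akr7a3, rose by 0.63 ± 0.13 (adjusted p = 0.00608) at 1500 mg/kg of PBO and was at 0.22 ± 0.08 (0.117) at 2000 mg/kg of DAM. Probe letters were not analysed here, so the share of signal from related transcripts was not tested.

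Of 10 tested genes of the albumin family and of Afp regulation, 1 fell at 1500 mg/kg of PBO (median -0.30). Without replicate 3, 2 were called, counted in either direction. At 2000 mg/kg of DAM 2 rose and 2 fell (median 0.13). Afamin (Afm), a neighbour of Afp in the albumin gene cluster, fell by 1.19 ± 0.14 and by 0.31 ± 0.07 on the log2 scale. Alb stood at 0.06 ± 0.15 and 0.28 ± 0.12, and the postnatal repressors Zbtb20 and Zhx2 at -0.30 ± 0.15 and -0.08 ± 0.16 under PBO and at 0.16 ± 0.09 and 0.28 ± 0.10 under DAM, all uncalled. At 2000 mg/kg of DAM, where Afp fell, the pioneer factor Foxa2 rose by 1.80 ± 0.22 and Foxa1 by 0.84 ± 0.14, and Foxa3 fell by 0.84 ± 0.21 on the log2 scale. Of the glypicans beside Gpc3, Gpc4 fell by 0.83 ± 0.15 on the log2 scale at 1500 mg/kg of PBO, and Gpc6 had no call.

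Targets of the receptors and of NRF2 were called at the highest doses, where Ggt1, Gpx2 and Akr7a3 were called and Gstp1 was not. Of 16 NRF2 targets tested, 13 rose and none fell at 1500 mg/kg of PBO (median 0.73), and 8 rose and none fell at 2000 mg/kg of DAM (median 0.43); at 500 mg/kg of PBO 2 rose. Me1, malic enzyme, rose by 2.36 ± 0.17 and 0.68 ± 0.09. Of 11 targets of the receptors CAR and PXR, 9 and 8 rose (medians 2.21 and 0.97), with the carboxylesterase Ces2c at 4.89 ± 0.20 and 3.14 ± 0.14. Of 6 aryl hydrocarbon receptor targets, 2 rose under each compound (medians 0.13 and 0.30). These were Cyp1a1, by 8.22 ± 0.62 and 4.73 ± 0.55, and Nqo1, while Cyp1a2 had no call. Abcc3, Ephx1 and Nqo1 stand in several of these lists, so the counts are not independent, and no link between a receptor and a member was tested.

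Of 21 cell cycle genes tested, 2 rose at 1500 mg/kg of PBO, where 8.08% of all probe sets rose: Pcna and Mcm2, by 0.64 ± 0.15 (adjusted p = 0.0115) and 0.95 ± 0.29 (0.0393), and 1 gene was called without replicate 3. At 2000 mg/kg of DAM limma called 0 of 20, with 3 at an unadjusted p below 0.05. At 500 and 1000 mg/kg of PBO 0 were called, with 9 each at an unadjusted p below 0.05 and medians of -0.79 and -0.83. No share of all probe sets at an unadjusted p below 0.05 stands beside these counts. The median at 1500 mg/kg was 0.30.

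Some markers of other liver cells fell at 1500 mg/kg of PBO beside the rises of Ggt1, Gpx2 and Akr7a3, while the cholangiocyte marker Epcam rose. There 3 of 6 macrophage markers and 3 of 8 stellate cell markers (4 called without replicate 3) fell. So did 2 of 6 endothelial markers (1 called without replicate 3). The 1 T and NK cell marker tested and 3 of 3 erythroid markers also fell, and none in these lists rose. Median changes were -1.31 for macrophage, -0.08 for stellate cell, -0.19 for endothelial and -1.70 for erythroid markers. Over all probe sets the median was -0.08. Of all 18625 probe sets tested there, 3228 were called, 46.6% of them rises. The summed macrophage signal was 12520 to 14409 in controls and 9344, 5905 and 2230 at 1500 mg/kg. The lowest of these is replicate 3, the array that stands apart. The summed erythroid signal was 21596 to 22811 in controls and 4350 to 9993 at 1500 mg/kg. At 2000 mg/kg of DAM, where 6.11% of all probe sets fell, 1 macrophage marker and 2 stellate cell markers fell. No endothelial, T and NK cell or erythroid marker was called. Of the hepatocyte markers, Cps1 fell by 0.78 ± 0.12 on the log2 scale under PBO, and under DAM Tat fell by 2.35 ± 0.20 while Apoa1 rose by 0.62 ± 0.09. The part of these shifts in the members' changes was not tested.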

How the data were processed

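Liver RNA was labelled with biotin by in vitro transcription and hybridised to 1-colour short oligonucleotide arrays. Per the submitters' processing notes, MAS5 produced the deposited values, which are linear probe set intensity units in 1 table; the version and detection calls are not given in the sources used here. Groups, doses and replicate numbers came from the labels, which call the replicates biological. Of 31099 probe sets, 57 controls were left out and 20826 had 1 gene symbol, 20758 of them found in RefSeq by Entrez identifier; a gene with several probe sets was represented by the one with the highest mean log2 value.

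Values were transformed as log2(signal + 16) with no further normalization, and the 18625 probe sets with a mean above the 40th percentile were tested. Each experiment was fitted alone on all its arrays with limma 3.58.1 in R 4.3.3 (lmFit, then eBayes with trend), and all 21 arrays were fitted for the difference between experiments. All probe sets tested entered the Benjamini-Hochberg adjustment, and the threshold was 0.05. Figures used Python 3.11.15 and matplotlib 3.10.9. The fit was tested on simulated data.

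The 7 members and 20 gene lists were chosen with earlier results of these data known, and support no claim of independence. Beside the members, the genes named were up to 4 per list with the smallest adjusted p at either highest dose and the 3 nearest in pattern to each called member; Ggt5, Ggt7, Aldh3a2, Akr7a2, Alb, Zbtb20, Zhx2, Cd44, Cd36, Prom1, Akr1b8, H19 and Mdk were named after their values were seen. Alternatives were pseudocounts of 1 and 64, the filter dropped or set at the 60th percentile, median scaling, quantile normalization, no trend, a replicate block, only the arrays compared, array weights, each array of the groups compared left out in turn and the other Gpc3 probe set; counts over lists with PBO 1500 mg/kg replicate 3 left out were chosen after seeing the data.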

Additional observations from a re-analysis of the deposited data

Results flagged for a closer look

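The effect of 2000 mg/kg of DAM on Ggt1, minus that of 1500 mg/kg of PBO, was -1.46 ± 0.28 (SE, limma, adjusted p = 0.00501), so the rise differed in size between the experiments by a test of the difference itself. Over 21 alternatives, arrays left out included, it ran from -1.83 to -1.32, with an adjusted p of at most 0.0186.

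For the brighter probe set of Gpc3 the change was 0.55 at 500 mg/kg of PBO and -0.47 at 800 mg/kg of DAM. All animals lay above the mean control signal in the first case and below it in the second, although the highest DAM animal, at 50.5, was close to its control mean. The DAM animals at this dose overlapped with their controls. The dimmer Gpc3 probe set, below the filter, had the opposite sign in both cases, at -0.26 and 0.34. The difference between the experiments was not tested on either probe set at these doses.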

How the results depend on the processing

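Of 1384 alternative values of the members, 1345 were counted as unchanged, 15 passed the threshold newly, 8 lost it and 16 uncalled values changed sign. Changes of sign were counted only for values tested in the reported fit. Values below the filter changed sign as well with arrays left out. Aldh3a1 ran from -0.39 to 0.27 at 2000 mg/kg of DAM, and the dimmer Gpc3 probe set from -0.83 to 0.13 at 500 mg/kg of PBO. Akr7a3 kept each call and each missing call under all alternatives run. The sign changed for Gstp1 at 1000 mg/kg of PBO (0.070 with median scaling, -0.16 to 0.12 with arrays left out) and in the difference of highest doses (-0.95 to 0.067), for Gpx2 in that difference (-0.53 to 0.058), and for Afp from 500 to 1000 mg/kg (-0.59 to 0.012) and from 1000 to 1500 mg/kg (-0.28 to 0.054). With array weights Gpc3 turned to -0.12 at 1500 mg/kg, -0.28 from 1000 to 1500 mg/kg and -0.053 over the doses, and with arrays left out these ran from -0.24 to 0.42, -0.39 to 0.27 and -0.088 to 0.084.

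Without the intensity trend, probe sets called were 45 and 300 at 500 and 1000 mg/kg of PBO (89 and 581 as reported), 235 and 1501 at 800 and 2000 mg/kg of DAM (705 and 2296), 54 from 1000 to 1500 mg/kg (224) and 60 between the DAM doses (207), with 1 member in the last. With only the arrays compared they were 269, 1370 and 1550 at the PBO doses, the last from 3228, and 0 with 0 members from 1000 to 1500 mg/kg. Array weights gave 348 and 1443 at 500 and 1000 mg/kg, 5 from 500 to 1000 mg/kg and 418 from 1000 to 1500 mg/kg. For that last step a pseudocount of 64 gave 2 members and the 60th percentile filter 342 probe sets and 2 members. Same-numbered animals did not deviate together (correlations of -0.072 to 0.104). With the replicate number as a block, 4 probe sets were called from 500 to 1000 mg/kg and 2 members from 1000 to 1500 mg/kg; Gpx2 at 500 mg/kg (adjusted p = 0.0479) and on that upper step (0.0453) and Afp over the doses (0.0453) passed, and no other member's call changed. The cause of these shifts was not tested.

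With arrays left out, probe sets called ranged from 52 to 371, 255 to 1448 and 2032 to 3321 at the PBO doses, 382 to 575 and 1492 to 1882 at the DAM doses, 0 to 10 and 13 to 924 for the PBO steps, 121 to 198 for the DAM step, 2188 to 3031 over the doses and 502 to 1425 for the difference. PBO 1500 replicate 3 gave the highest counts at 500 and 1000 mg/kg, and PBO 1500 replicate 2 those of the upper step and the difference. Members called ranged from 3 to 5 at 1500 mg/kg (5 without its replicate 2), 0 to 1 on the upper PBO step and 1 to 2 on the DAM step. Median scaling moved the median change of all probe sets by 0.11, 0.12 and 0.11 at PBO 1000, PBO 1500 and DAM 2000 mg/kg. It took the share of calls that were rises from 73.0%, 60.4% and 46.6% to 84.1%, 80.5% and 63.0% at the PBO doses, from 57.2% and 50.4% to 73.3% and 73.9% at the DAM doses, and from 47.2% to 65.7% over the doses. Afp at 2000 mg/kg of DAM was then at -0.38 (adjusted p = 0.0388). Signals near background limit Aldh3a1 and Gpc3.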
